A study of Mus musculus with 2 samples.

Results

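The Gata3 sites described here are stretches of the mouse genome that were bound in TH2 cells and lay more than 100 kb from the start of every protein-coding gene. A site was a run of touching 200-bp bins with at least 0.8 RPM (reads per 1000000 reads counted) in both libraries, and its centre was the middle of its highest bin. Of 10800 such sites on chromosomes 1 to 19, 1908 (17.7%, 95% exact binomial interval 16.95 to 18.4) lay this far from every protein-coding gene start. They are called far sites, although other transcript starts or lncRNA starts can be nearer. The RPM values and the distance chose these members, so heights, numbers and distances are given as descriptions with no test.

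Gata3 binding was measured in 1 condition, labelled as splenic TH2 cells, in 2 libraries labelled as replicates 1 and 2. The study's methods name *in vitro* TH2 cells for this assay. For TH2 cultures they describe splenic naive CD4+ T cells stimulated with antibodies against CD3 and CD28. These cultures also received IL-2, IL-4 and an antibody against IFN-γ. Chromatin was precipitated with the anti-GATA3 antibody D13C9 and tagmented on the beads (ChIPmentation), a method in which a transposase cuts the bound DNA and attaches the sequencing adaptors. The labels give no genotype, age or number of animals, the deposited files are named with CD4cre, which the labels do not explain, nothing says that the libraries came from separate cultures, and the extraction protocol names ILC2 where the other fields name TH2 cells. The reads show where DNA was bound and not which genes were expressed, so the named cell type could not be checked against its markers, and neither input DNA nor a control antibody was analysed here.

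Gata3 is the transcription factor that drives the differentiation of TH2 cells, the CD4+ T helper cells that produce IL-4, IL-5 and IL-13, and it is also needed earlier, for T cells to develop in the thymus. It is a zinc finger protein that recognises short sequences with GATA at their core. In lymphocytes, as in other cells, regulatory elements can lie a long way from the gene they act on, within neighbouring genes or in stretches without genes, so the nearest gene is only a label for a position.

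The sequences of 8 far sites are shown because they are the tallest sites of the regions described below, or because they rank among the tallest without holding a GATA sequence. Each is the plus strand of the 200-bp window around the site's centre on GRCm38. Capitals mark the GATA sequence, which stands for the form AGATAA, the form AGATAG, the form TGATAA and the form TGATAG, and the AP-1 sequence, TGACTCA or TGAGTCA, each also where it reads on the minus strand. The latter is recognised by AP-1, the dimer of Fos and Jun proteins that is formed on T cell activation.
Upstream of Satb1, chr17:52162601-52162800: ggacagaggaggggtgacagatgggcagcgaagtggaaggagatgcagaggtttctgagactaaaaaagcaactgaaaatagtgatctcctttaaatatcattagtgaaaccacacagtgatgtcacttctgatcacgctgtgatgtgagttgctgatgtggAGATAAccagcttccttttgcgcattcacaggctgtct
In Hecw2, nearest start Stk17b, chr1:53908401-53908600: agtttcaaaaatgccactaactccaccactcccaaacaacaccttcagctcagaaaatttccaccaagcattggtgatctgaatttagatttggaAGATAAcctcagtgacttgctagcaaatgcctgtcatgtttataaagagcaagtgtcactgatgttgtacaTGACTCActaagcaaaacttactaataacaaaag
Downstream of Ets1, chr9:33061001-33061200: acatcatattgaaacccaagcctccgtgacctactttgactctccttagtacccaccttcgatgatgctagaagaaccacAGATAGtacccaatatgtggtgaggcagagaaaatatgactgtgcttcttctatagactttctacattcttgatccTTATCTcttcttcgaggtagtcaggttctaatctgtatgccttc
Downstream of Gata3, chr2:9564601-9564800: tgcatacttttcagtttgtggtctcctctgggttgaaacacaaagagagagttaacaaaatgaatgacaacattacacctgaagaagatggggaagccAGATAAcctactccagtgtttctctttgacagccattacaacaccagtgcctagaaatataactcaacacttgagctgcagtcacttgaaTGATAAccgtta
Upstream of Myc, chr15:61512801-61513000: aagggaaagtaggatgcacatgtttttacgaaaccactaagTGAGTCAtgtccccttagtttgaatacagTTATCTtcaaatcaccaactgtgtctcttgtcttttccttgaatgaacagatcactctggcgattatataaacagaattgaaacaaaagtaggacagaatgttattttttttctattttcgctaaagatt
In Inpp4b, chr8:81766001-81766200: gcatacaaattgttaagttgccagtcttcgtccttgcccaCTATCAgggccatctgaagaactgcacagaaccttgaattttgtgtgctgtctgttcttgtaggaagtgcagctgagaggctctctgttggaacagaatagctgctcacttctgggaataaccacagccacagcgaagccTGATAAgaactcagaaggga
Downstream of Maf, chr8:115385801-115386000: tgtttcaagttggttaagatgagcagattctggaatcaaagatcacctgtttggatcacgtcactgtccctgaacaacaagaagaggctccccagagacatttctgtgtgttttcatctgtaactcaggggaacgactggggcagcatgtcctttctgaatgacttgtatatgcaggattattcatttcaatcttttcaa
In Pced1b, nearest start Amigo2, chr15:97373401-97373600: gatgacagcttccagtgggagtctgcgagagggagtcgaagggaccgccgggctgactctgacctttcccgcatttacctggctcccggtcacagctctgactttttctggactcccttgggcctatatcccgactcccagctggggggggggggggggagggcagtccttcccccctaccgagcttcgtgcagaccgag
The windows in *Hecw2* and near *Myc* held both sequences, and the *Ets1*, *Gata3* and *Inpp4b* windows held the GATA sequence at 2 places. The *Maf* and *Amigo2* windows held neither.

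Library 1 held 40526613 reads and library 2 held 24970952, of which 39287837 and 24084150 lay on chromosomes 1 to 19. A site therefore needed at least 32 reads in a bin of library 1 (0.8145 RPM) and 20 in library 2 (0.8304 RPM), against a mean of 3.19 and 1.96 reads per bin. Among all bins with a read in both libraries 0.309% passed in both, and among bins over 100 kb from a start 0.136% passed. In that far sequence 4350 bins passed in both libraries, 2354 in library 1 alone and 1536 in library 2 alone. The libraries carry different instrument names in their reads, so library and sequencing run cannot be told apart. Intervals on reads and on shares cover counting error only.

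Presence in both libraries was required of a site, so the likeness of the libraries at far sites describes members selected for it. Their highest bin held a median of 57 reads in library 1 (32 to 225) and 32 reads in library 2 (20 to 189), or 1.45 and 1.33 RPM. The lower of these RPM values, called the height from here on, had a median of 1.22 RPM and quartiles of 0.955 and 1.83 RPM. Over the sequence 2 to 10 kb to either side, the lower fold of the libraries had a median of 10.8. The width had a median of 2 bins, and 713 sites were 1 bin wide whereas 139 spanned 5 bins or more. The RPM values of the libraries lay within 1.5-fold of each other at 88.4% of far sites and differed by over 2-fold at 24. Across the 1908 far sites, which share the same libraries, log2 RPM in library 1 and 2 had a Pearson correlation of 0.838. Many sites stood near the minimum, since 305 (15.99%) had a height under 0.9 RPM. Among far sites at the minimum, those near *Gfra1* and *Scg2* held 32 reads each in library 1 and 40 and 20 reads in library 2.

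Reads of opposite strands piled up on either side of the centre, the arrangement that reads of DNA fragments around a bound position take. Reads on the plus strand peaked at 0.0929 RPM per site and 20 bp in library 1, 50 bp before the centre, and at 0.0902 RPM in library 2, 10 bp before it. On the minus strand the peaks stood 70 bp and 30 bp after the centre. More than 800 bp away the mean was 0.0113 RPM in library 1 and 0.0137 RPM in library 2. The site centres were chosen on the same reads, after each read's 5′ end had been moved 100 bp towards its 3′ end. That choice by itself favours plus strand reads before the centre and minus strand reads after it. This profile therefore describes the shape of the sites only.

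**Figure D1:**
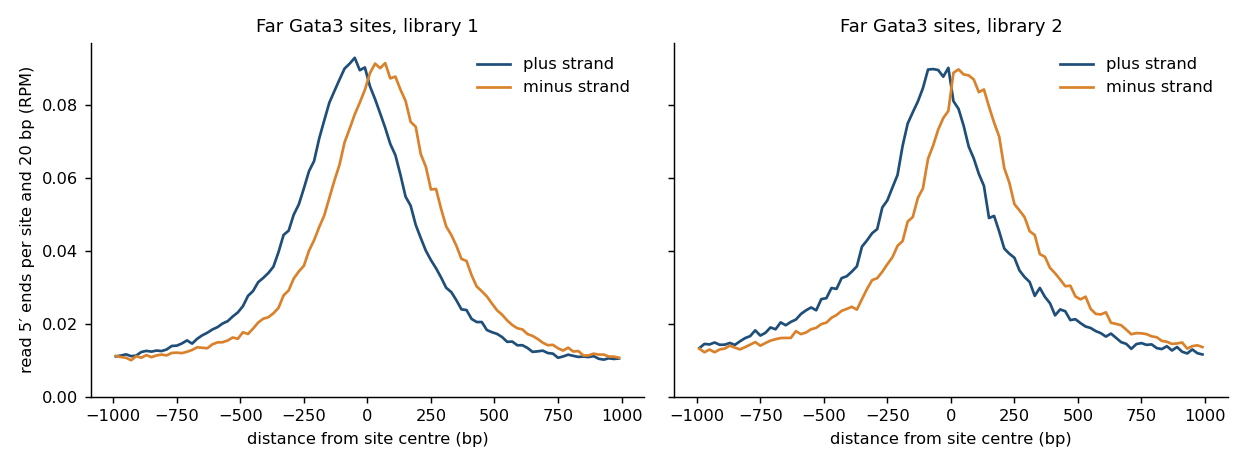
Read 5′ ends (RPM per site and 20 bp, vertical axis) by distance from the centre of the 1908 far sites (bp, horizontal axis), for the plus strand (blue) and the minus strand (orange) in library 1 (left) and library 2 (right). Plus strand reads peak before the centre and minus strand reads after it, in both libraries.

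Sites were scarcer with growing distance from gene starts. Heights were cut at 0.8 RPM by the rule in every class, and their medians are given with that limit. The far sequence with reads came to 640.9 Mb, 40.5% of all bins with a read in both libraries, and held 2.98 sites per Mb. The 7571 sites 2 to 100 kb from a start had a density of 8.59 per Mb, and the 1321 promoter sites, within 2 kb of a start, 21.9 per Mb. Reads as a whole also thinned out with distance. Library 1 held a mean of 5.30 reads per bin within 2 kb of a start, 3.57 at 2 to 100 kb and 2.60 in far sequence, and library 2 held 3.18, 2.19 and 1.59. The minimum was the same in every class, and the bearing of coverage on density was not tested. Among far sites the density was 4.75 per Mb between 100 and 200 kb (1105 sites), 2.54 per Mb between 200 and 500 kb (643 sites) and 1.03 per Mb beyond 500 kb (160 sites). The far density was below that of sites 2 to 100 kb from a start on 19 of 19 chromosomes, and ranged from 1.74 per Mb on chromosome 5 to 5.30 per Mb on chromosome 13. The median height was 1.22 RPM for far sites, 1.22 RPM for sites 2 to 100 kb from a start and 1.20 RPM for promoter sites, and it was 1.04 RPM for the 26 far sites over 1000 kb from a start. Far sites made up 19 of the 100 tallest sites and 186 of the 1000 tallest.

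**Figure D2:**
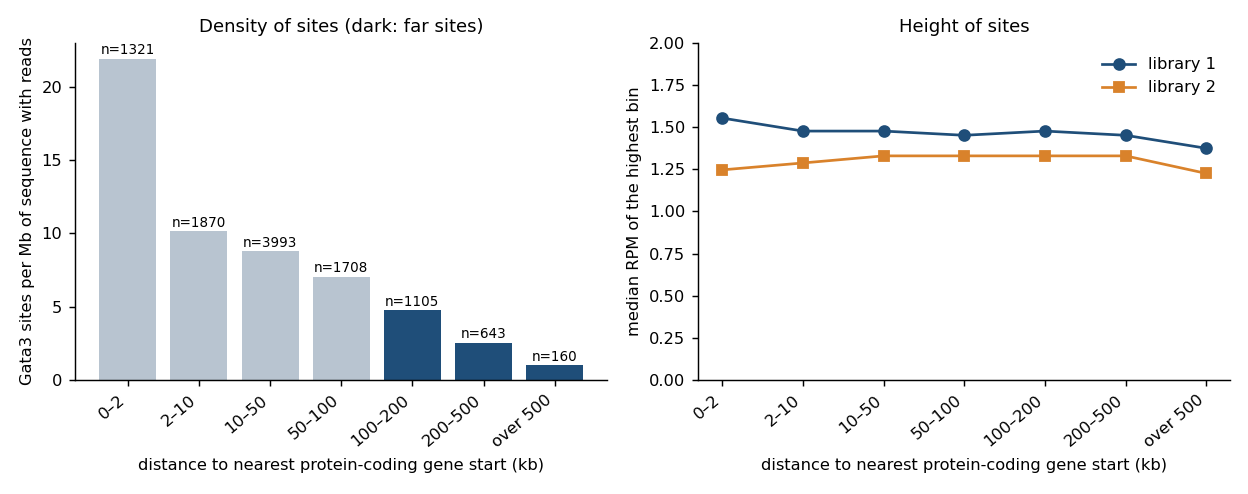
Sites per Mb of sequence with reads (left, bars, n = sites) and the median RPM of the highest bin in library 1 and library 2 (right, points) by distance to the nearest protein-coding gene start (kb, horizontal axis). Density falls from 21.9 to 1.03 sites per Mb, and the medians stay between 1.23 and 1.55 RPM.

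The distance of far sites had a median of 172955 bp. The far site nearest to the limit lay 100047 bp from the start of *Erv3*, with 76 and 24 reads in libraries 1 and 2, and the site just outside it lay 99944 bp from the start of *Tomm20*, with 32 and 28 reads. At the other end 26 far sites lay over 1 Mb from the 1 start used for each protein-coding gene. The most remote was 1638542 bp from the start of *Kcnt2* on chromosome 1, with 47 and 28 reads (1.20 and 1.16 RPM), followed by sites whose nearest starts were *Jmjd1c* (1445.2 kb, 34 and 24 reads) and *Ppp6c* (1407.0 kb, 32 and 28 reads). The last of these lay within *Lrp1b*, 6164 bp from the start of another protein-coding transcript. The site near *Kcnt2* stood close to the median height of far sites and the other two close to the minimum, but remote sites were not all low. The start of *Zeb2*, a zinc finger transcription factor of effector T cells, was nearest to 6 far sites, of which 5 lay over 1000 kb upstream. The tallest of these held 126 and 73 reads (3.21 and 3.03 RPM) at 1117.3 kb, and the next 108 and 68 reads (2.75 and 2.82 RPM) at 1190.5 kb. All 6 windows held the GATA sequence.

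Only 1 start per gene was used by the rule. With the starts of all protein-coding transcripts, 722 far sites lay within 100 kb of a start and 35 within 2 kb. The latter had a median height of 1.91 RPM, against 1.22 RPM for all far sites. Of the far sites, 458 (24.0%) were over 100 kb from every protein-coding transcript start and every lncRNA gene start. Introns of protein-coding genes held 803 far sites, the bodies of lncRNA genes alone held 232, and 843 lay outside both kinds of gene. The share in a protein-coding gene body was 43.7%, against 32.2% of far bins with reads. Of 833 far sites within a gene body, only 495 (59.4%) lay in the gene whose start was nearest.

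The GATA sequence was present in most far sites and was centred on them. It occurred within 100 bp of the centre in 1329 of 1908 far sites (69.7%, 95% exact interval 67.5 to 71.7), against 40.8% of all far bins with reads and 36.2% of windows 1 kb to either side of the sites. AGATAA was the most frequent form (38.0% of far sites and 14.1% of the windows beside them), followed by TGATAA (22.6% and 11.9%), AGATAG (18.2% and 10.2%) and TGATAG (11.9% and 8.23%). The same letters reversed (the form AATAGA, the form AATAGT, the form GATAGA and the form GATAGT) served as a control of the same base composition. They occurred in 32.0% of far sites, 36.5% of far bins and 30.9% of the windows beside the sites. The forms GATAGA and GATAGT still hold the letters GATA and can overlap a GATA sequence. In steps of 20 bp, the GATA sequence reached 11.8% of far sites 10 bp before the centre and averaged 5.63% beyond 300 bp. A match is a description of the letters, not a measured contact, and the 465 far sites with neither the GATA nor the AP-1 sequence still had a median height of 1.17 RPM.

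The AP-1 sequence occurred in 335 far sites (17.6%, 95% exact interval 15.9 to 19.3), against 3.53% of far bins and 4.77% of the windows beside the sites. It peaked at 2.57% of far sites per 20 bp, 10 bp before the centre, and averaged 0.485% beyond 300 bp. Both sequences were found in 221 far sites (11.6%), against 1.36% of far bins. These 221 sites had a median height of 1.37 RPM and 27.6% of them reached 2 RPM, compared with 1.20 RPM and 19.9% for the 1108 sites with the GATA sequence alone, and 1.17 RPM and 15.7% for sites with neither. The order of these groups was the same in sites 2 to 100 kb from a start. There the median heights were 1.45, 1.246 and 1.145 RPM, and 27.8%, 19.55% and 14.1% reached 2 RPM. Far sites were also ranked by height into 4 equal groups. From the lowest to the highest, the AP-1 sequence was held by 13.4%, 17.2%, 18.4% and 21.2%, rising at each step. For the GATA sequence the shares were 67.7%, 70.2%, 68.1% and 72.5%, with no steady rise. By copies of the GATA sequence, the median height was 1.20 RPM with none, 1.25 RPM with 1, 1.20 RPM with 2, 1.26 RPM with 3 and 1.04 RPM with 4 or more (43 sites), in no steady order.

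**Figure D3:**
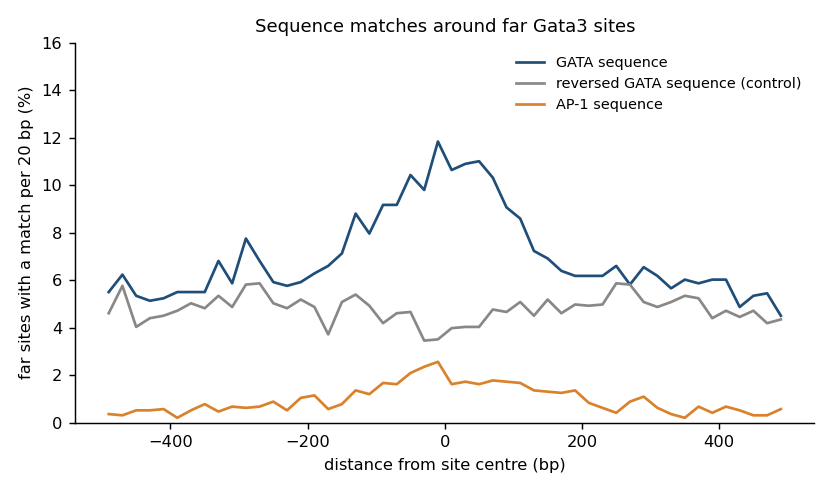
Share of the 1908 far sites with a match per 20 bp (%, vertical axis) by distance from the site centre (bp, horizontal axis), for the GATA sequence (blue), its letters reversed (grey) and the AP-1 sequence (orange). The GATA sequence rises to 11.8% and the AP-1 sequence to 2.57% near the centre, whereas the reversed letters have no peak there.

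Far sites were compared with the other sites for 20 sequence and annotation features, against 2 classes of sites, and the 40 two-sided Fisher's exact tests were adjusted together by the Benjamini-Hochberg method. A protein-coding gene body and a neighbouring site within 10 kb draw on values that chose the sites, so no test is given for these. The counts below are over the other 18 features. Of these, a lncRNA start within 2 kb is also a matter of position. It was found in 3.25% of far sites, 3.5% of sites 2 to 100 kb away and 13.85% of promoter sites. It counts among the features that passed against promoter sites. Sites within a region are not independent, and the p-values treat each site as 1 observation. Against sites 2 to 100 kb from a start, 9 of 18 features passed, 4 of them more frequent and 5 less frequent in far sites. Those 4 were all built from the GATA and AP-1 sequences. Some of the 18 features overlap, so these counts are not numbers of separate traits. At least 5 CpG dinucleotides per 200 bp were found in 6.87% of far sites and 10.9% of sites 2 to 100 kb away (adjusted exact p = 2.72e-07), a call that held under all 14 alternatives run. The bins of each class differed in the same way, with 3.804% of far bins and 8.88% of bins 2 to 100 kb from a start, so that relative to its own bins the share was 1.805 times as high in far sites and 1.22 times as high in the others. Sequence that was over 50% soft-masked, the mark of repeats in the genome file, made up 1.42% and 2.51% of these sites (adjusted exact p = 0.00772), against 10.1% of all far bins. The letters searched as the CTCF core (the form AGAGGGC, the form AGATGGC, the form AGGGGGC and the form AGGTGGC) occurred in 12.7% and 14.8% (adjusted exact p = 0.0358), and the GC box GGGCGG in 2.36% and 3.46% (adjusted exact p = 0.02635). Here too the bins differed, with 8.81% and 12.7% for CTCF and 1.12% and 2.37% for the GC box, and relative to their own bins far sites had the higher ratio, 1.45 against 1.17 times for CTCF and 2.11 against 1.46 times for the GC box. The differences in repeats, CTCF and the GC box lost the call at a minimum of 1 RPM, with adjusted exact p-values of 0.0671, 0.329 and 0.179. Over all alternatives these p-values ranged from 3.38e-06 to 0.657 for repeats, from 1.75e-06 to 0.459 for CTCF and from 0.000435 to 0.613 for the GC box.

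The GATA sequence was slightly more frequent in far sites than in sites 2 to 100 kb from a start, 69.7% against 66.6%, a difference of 3.02 points (adjusted exact p = 0.0246). This call was lost with library 2 alone, where the difference was 0.853 points (adjusted exact p = 0.465), and the difference reversed to -0.392 points when starts of genes of every biotype were used (adjusted exact p = 0.8875). Over 18 alternatives, the control with reversed letters among them, the adjusted exact p ranged from 0.00265 to 0.8875. Far sequence is also richer in A and T, with a median GC content of 40% per bin against 44%, and relative to bins of their own class the GATA share was 1.71 times as high in far sites and 1.95 times as high in sites 2 to 100 kb away. The AP-1 sequence differed by 2.37 points (17.6% against 15.2%, adjusted exact p = 0.0246), and the call was kept with either library alone but lost in 8 of 16 alternatives (adjusted exact p from 0.00323 to 0.477). At least 2 GATA sequences were found in 25.5% against 22.9% (adjusted exact p = 0.0346). This call was kept in 7 of 16 alternatives, with adjusted exact p-values from 0.00803 to 0.868, and relative to their own bins the ratio was lower in far sites, 2.34 against 2.94 times. Both sequences were found in 11.6% against 9.68% (adjusted exact p = 0.0276), while neither was found in 24.4% against 27.9% (adjusted exact p = 0.00565). The last 2 calls were also lost with library 2 alone, at adjusted exact p-values of 0.201 and 0.148. Over the alternatives these p-values ranged from 0.0018 to 0.854 and from 0.00159 to 0.854. The bins differed in the same directions, with both sequences in 1.36% of far bins against 1.19%, and neither in 57% against 63.3%. Relative to their own bins the ratios lay close together, 8.52 against 8.16 times for both and 0.4275 against 0.4399 times for neither.

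No difference passed for the letters bound by ETS factors (AGGAAGT or CGGAAGT, 8.60% of far sites and 8.10% of sites 2 to 100 kb away), RUNX (TGTGGTT, 6.39% and 7%), TCF (CTTTGAA or CTTTGAT, 11.2% and 9.58%), NFAT (TGGAAA, 19.5% and 17.8%), STAT (TTCNNNGAA or TTCNNNNGAA, 15.3% and 13.7%) or E proteins (CACCTG or CAGCTG, 19.6% and 21.7%). In far bins these occurred in 5.104%, 4.297%, 9.66%, 21.02%, 13.5% and 16.1%, in the same order. Of these 6, NFAT letters alone were less frequent in far sites than in far bins. The reversed GATA letters occurred in 32.0% and 31.4% (adjusted exact p = 0.624). A neighbouring site within 10 kb was present for 33.3% of far sites and 35.3% of sites 2 to 100 kb away.

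Promoter sites differed from far sites in 13 of 18 features. At least 5 CpG were found in 44.8% of them against 6.87% of far sites (adjusted exact p = 2.98e-144), the GC box in 15.1% against 2.36% (adjusted exact p = 3.31e-40), and the AP-1 sequence in 8.33% against 17.6% (adjusted exact p = 1.21e-13). Promoter bins also held these letters more often than far bins, with 31.9% against 3.804% for at least 5 CpG and 11.8% against 1.12% for the GC box. Relative to their own bins, far sites had the higher ratio for both, 1.805 against 1.405 times and 2.11 against 1.28 times. The GATA sequence was present in 60.4% against 69.7% (adjusted exact p = 2.61e-07), but the reversed letters also differed, with 25.5% against 32.0% (adjusted exact p = 0.000204). Relative to their own bins, of which 27.4% and 40.8% held the GATA sequence, its ratio was higher in promoter sites, 2.20 against 1.71 times. By distance, the GATA share was 68.9% between 100 and 200 kb, 68.9% between 200 and 500 kb and 78.1% beyond 500 kb (95% exact interval 70.9 to 84.3, 160 sites), while it rose in the bins from 37.8% to 41.0% and 45.2%. The AP-1 share was 17.2%, 19.4% and 12.5% in the same ranges, the last with a 95% exact interval of 7.8 to 18.6.

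The tallest far sites lay beside genes with known functions in T cells and beside others without. The tallest by height was upstream of *Satb1*, the chromatin organiser of developing and naive T cells, with 225 reads in library 1 and 189 in library 2, or 5.73 RPM (95% exact Poisson interval 5.00 to 6.53) and 7.85 RPM (6.77 to 9.05). It lay 329.4 kb from the start of *Satb1*, from chr17:52162001-52163400, in the body of the lncRNA gene *Gm19585*. The same height was reached in *Mbnl1*, an RNA splicing regulator, with 225 and 161 reads, 129.1 kb from the gene's start but only 1638 bp from the start of another of its transcripts. The site in *Pced1b* near *Amigo2* held 211 and 147 reads (5.37 and 6.10 RPM) in a window with 64.0% GC and 10 CpG. The site in *Hecw2* held 208 and 130 reads (5.29 and 5.40 RPM), with *Stk17b*, a kinase of lymphocyte apoptosis, as the nearest start at 123.3 kb.

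The next sites of the 15 tallest had *B3gnt2*, *Slc24a2*, *Tmem17*, *Fasl*, *Chsy1*, *Rbpj*, *Nabp1*, *Gas2*, *Esp38* and *Vrk1* as nearest genes, beside a further site of *Satb1*, with heights from 4.56 to 4.96 RPM. Of the 15 tallest far sites, 5 lay within 100 kb of the start of some other protein-coding transcript. *Fasl*, the ligand of the death receptor Fas, had a single far site at 117.4 kb, with 188 and 146 reads (4.79 and 6.06 RPM) and with both the GATA and the AP-1 sequence. *Rbpj*, the DNA-binding partner of Notch, had its tallest site within the gene, 100.3 kb from its start and 10666 bp from another transcript start, with 190 and 113 reads (4.84 and 4.69 RPM). In both libraries each of these stood many times over its flanks, 53.1-fold and 47.9-fold for *Fasl* and 27.0-fold and 22.5-fold for *Rbpj*. The site near *Esp38* stood apart in form. It was 3600 bp wide, from chr17:39843201-39846800, had 69.0% GC and 24 CpG, stood 91.3-fold and 172-fold over its flanks, and lay over the lncRNA gene *Gm26917* beside *Rn18s-rs5*, a copy of ribosomal RNA sequence in the annotation. Both far sites of this stretch were without the GATA sequence, and leaving them out gave 1906 far sites and a GATA share of 69.7%.

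Far sites were unevenly spread over the genes nearest to them. Of 3966 protein-coding genes with far sequence, 822 were nearest to at least 1 far site (20.7%). When far sites up to 50 kb apart were joined, they formed 1083 clusters, of which 706 held a single site and 58 held 5 or more. These 58 clusters held 392 far sites (20.5%). The gene with most far sites was *Myc*, the regulator of growth on T cell activation, with 36, followed by *Inpp4b* with 29, *4930412O13Rik* with 28, *Ets1* with 21, and *Maf*, *Usp6nl* and *Klf6* with 15 each. *Cblb* and *Nrip1* had 14 each and *Id2* had 13.

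The far sites of *Myc* reached from 120.5 to 864.3 kb, with 5 upstream and 31 downstream of the gene. They came to 37.4 sites per Mb of the far sequence of *Myc*, against 2.98 per Mb over all genes. Of the downstream sites 11 lay in the body of *Pvt1*, the lncRNA gene beside *Myc*, and 7 in *Gm41333*. The tallest was 472.5 kb upstream, with 140 and 85 reads (3.56 and 3.53 RPM), and is the one shown above with both sequences. Downstream, a pair at 403.1 and 407.7 kb held 131 and 82 reads and 125 and 91 reads, beyond the last site in *Pvt1*. A cluster of 14 sites followed between 712.9 and 864.3 kb, with its tallest at 778.1 kb (114 and 95 reads, 2.90 and 3.95 RPM). The GATA sequence was present in 23 of the 36 sites and the AP-1 sequence in 4.

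The start of *4930412O13Rik* lies 8.78 kb from that of *Gata3*, within the *Gata3* gene, and the 28 far sites given to it all lay beyond the 3′ end of *Gata3* itself, 176.5 to 1086.5 kb from its start. Of these, 9 were within 500 kb. The tallest, chr2:9564201-9565200, held 150 and 109 reads (3.82 and 4.53 RPM) at 316.6 kb from the start of *4930412O13Rik*, and its window is shown above. Between 296.0 and 315.2 kb stood 5 more sites, with 50 to 106 reads in library 1 and 24 to 52 in library 2. A further group of 8 sites lay 916.2 to 1015.8 kb from the start of *4930412O13Rik*, with its tallest at 165 and 75 reads (4.20 and 3.11 RPM). The GATA sequence was present in 22 of the 28 sites. In 25 of them library 1 had the higher RPM, with a median log2 ratio of library 1 to library 2 of 0.36, compared with 0.06 over all far sites. The flanking sequence of these sites was also higher in library 1 at 25 of 28, with a median log2 ratio of 0.21, against -0.08 over all far sites.

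*Inpp4b*, an inositol lipid phosphatase, had 29 far sites, all within its own body between 148.5 and 523.9 kb from its start. They formed clusters of 16 and 13 sites, with tallest sites of 119 and 82 reads at 229.9 kb and of 138 and 86 reads at 423.5 kb. The latter lay 1701 bp from the start of another protein-coding transcript, and 16 of the 29 were within 100 kb of such a start. The GATA sequence was present in 21 of the 29. The density, 75.4 per Mb of its far sequence, exceeded the 37.4 per Mb of *Myc*, while the heights were lower, with a median of 1.12 RPM against 1.36 RPM.

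*Ets1*, a transcription factor of thymocytes and mature T cells, had 21 far sites, all on its downstream side from 104.9 to 603.1 kb, of which 15 formed a cluster at chr9:32899801-33080600. The tallest held 164 and 133 reads (4.17 and 5.52 RPM), whereas the next, at 292.7 kb, held 92 and 71 reads (2.34 and 2.95 RPM). *Maf*, which drives IL-4 expression in TH2 cells, had 15 far sites, 14 downstream and 1 upstream, and 9 lay within the neighbouring gene *Wwox*. The tallest lay between both genes, 321.9 kb from the start of *Maf*, with 172 and 121 reads (4.38 and 5.02 RPM), and without a GATA sequence within 100 bp of its centre. *Satb1* had 9 far sites, 8 of them upstream and 7 in *Gm19585*. Besides the tallest, the site at 203.0 kb held 193 and 141 reads (4.91 and 5.85 RPM), and the lowest of the 9 held 39 and 20.

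In other regions the neighbouring genes divided the far sites. The 15 far sites of *Usp6nl* all lay within *Celf2*, an RNA-binding protein gene of lymphocytes, 235.2 to 472.4 kb away, and the tallest held 175 and 104 reads (4.45 and 4.32 RPM). All 15 lay within 100 kb of a transcript start other than the gene starts used. Between *Tnfaip3*, the inhibitor of NF-κB signalling, and *Olig3*, which were picked as a pair after the cluster had been seen, 13 far sites lay within 120.6 kb, 6 nearer to *Tnfaip3* and 7 nearer to *Olig3*. The tallest of the 13 held 169 and 102 reads (4.30 and 4.24 RPM) and the tallest on the *Tnfaip3* side 77 and 47 (1.96 and 1.95 RPM). *Id2*, an inhibitor of E proteins, had 13 far sites that were all upstream, and *Cblb*, an E3 ligase that restrains T cell activation, had 10 upstream and 4 within its body. *Foxp1*, a factor of T cell quiescence, had 11 far sites, all inside the gene and 10 with the GATA sequence, and all 11 lay within 100 kb of another transcript start (2041 to 74768 bp). *Dusp6*, a phosphatase of ERK, had 12 far sites in 125.4 kb, and library 2 had the higher RPM at 11 of these, with a median log2 ratio of library 1 to library 2 of -0.36. Its flanking sequence was higher in library 2 at all 12 sites, with a median log2 ratio of -0.45.

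**Figure D4:**
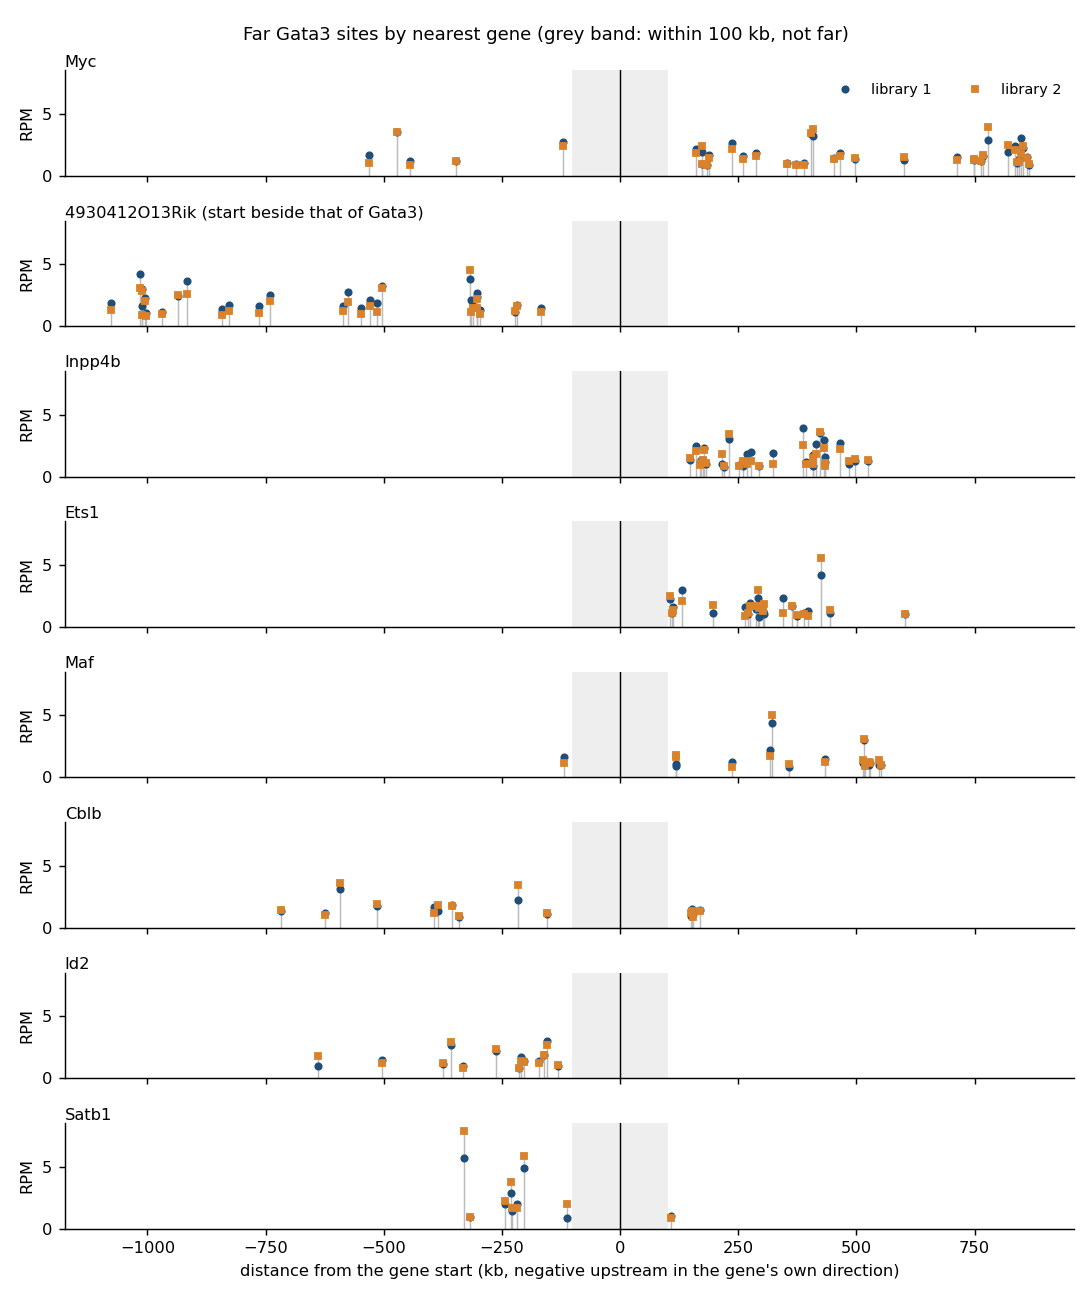
RPM of each far site in library 1 (blue circles) and library 2 (orange squares) by its distance from the start of the nearest gene (kb, negative upstream in the gene's own direction), for 8 genes. The sites of Myc and Cblb lie on both sides, those of Inpp4b and Ets1 on the downstream side alone, and those of Id2 and 4930412O13Rik upstream alone.

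Genes were grouped into 7 lists by function, and the counts below give how often a gene on a list was nearest to a far site. They describe positions and were not tested, since the lists were written with earlier results known. Of the 138 genes on 5 lists of T cell genes, 59 had far sequence and 42 of these (71.2%) were nearest to at least 1 far site, against the 20.7% over all genes. They held 235 far sites (12.3% of all) at 19.01 per Mb, and 17.5 per Mb without *Myc*, compared with 2.98 per Mb over all genes and 2.89 per Mb for genes on no list. The median far sequence was 0.121 Mb for the T cell genes that had any and 0.0784 Mb over all genes. The shares of genes were not adjusted for this, nor the densities for the distance of that sequence from a start.

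Transcription factors of T helper cells had 32 far sites at 6 of 9 genes (15.9 per Mb). Besides *Maf*, these were *Bhlhe40* with 7 sites up to 1.76 RPM, *Bcl6* with 4 up to 2.80 RPM, *Ikzf2* with 3 up to 3.77 RPM, *Rora* with 2 and *Nfil3* with 1. All 7 sites of *Bhlhe40* were upstream of it, 6 of them in the body of another protein-coding gene, and that of *Nfil3* lay in *Ror2*. Thymic and naive T cell factors had 84 at 13 of 16 genes (16.7 per Mb), among them *Runx1* and *Zeb2* with 6 each and *Foxo1* with 5, whereas *Bcl11b* and *Tox* had 1 each, the latter of 3.49 RPM. *Zeb2* was placed on this list although it is described above as a factor of effector T cells. Activation factors had 51 at 8 of 12 genes (26.4 per Mb), of which 36 were those of *Myc*. *Jun*, *Fosl2* and *Nr4a3* had 3 each, and those of *Fosl2* were upstream of it within the body of another protein-coding gene.

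Genes of costimulation, survival and adhesion had 62 at 13 of 17 genes (23.1 per Mb), with *Cblb*, *Dusp6*, *Dusp4* (7) and *Tnfaip3* (6) ahead of *Cxcr4* and *Ptprc* (4 each). *Itgb1*, the β1 integrin chain, had 3 sites 137.8 to 159.6 kb upstream, of which the tallest held 171 and 101 reads (4.35 and 4.19 RPM) without a GATA sequence. Cytokines and their receptors had 6 at 2 of 5 genes (8.64 per Mb), 5 at *Tgfbr2* and 1 at *Ifng*, in 0.695 Mb of far sequence. *Gata3*, *Il4*, *Il5*, *Il13*, *Itgav* and *Itgb3* had 0 Mb of far sequence of their own, so no far site could be given to them.

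Far sites were less dense around the listed genes of other tissues than over all genes. Developmental transcription factors of other lineages had far sites at 5 of 38 genes (13.2%), with 21 sites at 1.74 per Mb, of which 12 were in the body of *Sox5* and 5 belonged to *Sox6*. Both encode SoxD proteins of cartilage and neural development. Neuronal adhesion and synapse genes had the largest far sequence, 47.6 Mb over 50 genes, and held 11 far sites at 0.231 per Mb. The median far sequence of these genes was 0.942 Mb, and that of the developmental factors 0.302 Mb, against 0.0784 Mb over all genes. The 11 sites lay at 9 of the 50 genes (18%), a share near the 20.7% over all genes but drawn from unlike amounts of sequence. Among these the tallest was in *Pcdh7* (2.16 RPM), and *Cntn5* was nearest to 3.

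**Figure D5:**
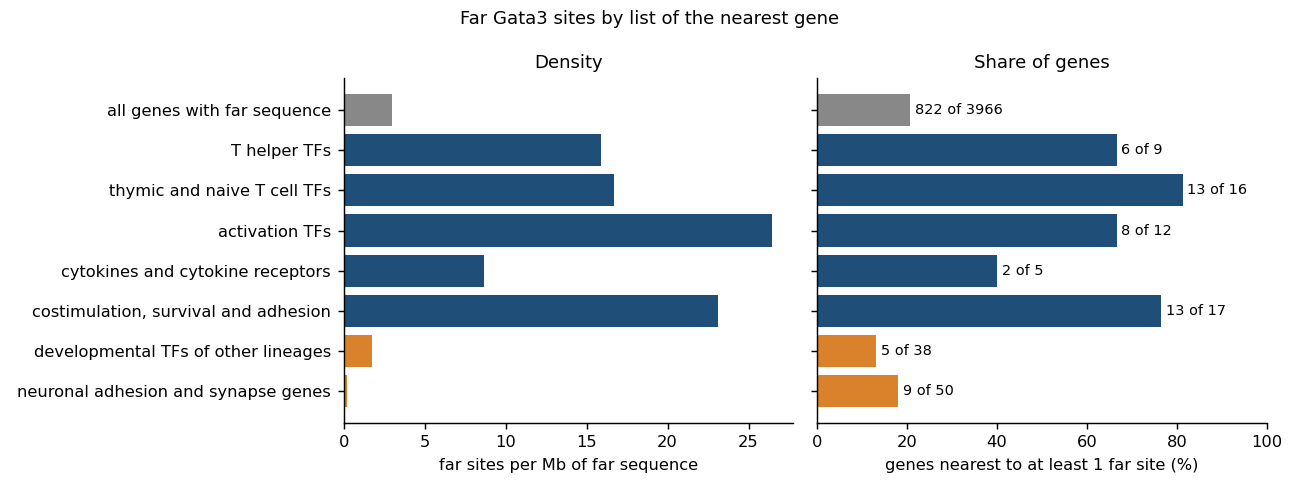
Far sites per Mb of far sequence (left) and the share of genes with far sequence that were nearest to at least 1 far site (%, right, with counts), by gene list. The 5 T cell lists (blue) run from 8.64 to 26.4 per Mb, all genes (grey) stand at 2.98 and the 2 lists of other tissues (orange) at 1.74 and 0.231.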

How the data were processed

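Gata3 ChIPmentation was measured in 2 libraries of TH2 cells. According to the labels and the study's methods, the authors aligned the reads to GRCm38 and removed those without a unique position, which can lower counts in repeats. The submitters' processing notes name Bowtie2 (version 2.3.5.1) and MACS2 (version 2.1.2), and how MACS2 was used is not given in the sources used here. The authors deposited 1 line per aligned read, with its position, strand and mapping quality score. The score served only as an alternative filter. In each library 0 reads shared a 5′ end and strand, so duplicates had been removed, which limits the height a site can reach. All results rest on read positions.

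Each read's 5′ end was moved by 100 bp towards its 3′ end and counted in 200-bp bins of chromosomes 1 to 19, and counts were divided by the library's reads on these chromosomes and multiplied by 1000000. Touching bins of at least 0.8 RPM in both libraries formed a site. Gene starts, 1 for each of 20807 protein-coding genes, came from GENCODE M21, and sequence and soft-masking from the RefSeq copy of GRCm38. Sequences were searched within 100 bp of each centre, on both strands, and may overlap. Shares of sites were compared by two-sided Fisher's exact tests with Benjamini-Hochberg adjustment at 0.05. With 1 condition, no groups were compared.

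The members and the gene lists were chosen with earlier results of these data known. Named genes were the nearest genes of the 15 tallest far sites, the 10 genes with most far sites, the listed genes with most or tallest far sites and those of the 3 most remote sites. Genes that host far sites, genes at the limits, *Olig3* and *Gata3* are named besides, chosen after their values were seen. Site calling was tested on simulated data. Python 3.11.15, NumPy 2.4.6, SciPy 1.17.1, pandas 2.3.3 and Matplotlib 3.10.9 were used.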

Additional observations from a re-analysis of the deposited data

Results flagged for a closer look

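Chromosome X was outside the rule, and its reads were examined separately with the same minimum. It held 226 Gata3 sites, of which 34 lay over 100 kb from every protein-coding gene start. The tallest of the 34 had a height of 3.16 RPM, and 22 of them (64.7%) held the GATA sequence. This is a signal in data that the comparisons above do not use. No control library was used for it, and the minimum itself places every such site above the limit that a count of 0 allows (3 counts).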

How the results depend on the processing

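No paired analysis was possible because the libraries hold a single condition. The calls of sequence differences between far sites and sites 2 to 100 kb from a start were lost under some settings, except that for at least 5 CpG, which was kept in 14 of 14 alternatives. The number of far sites (1908) was 608 at 1.6 RPM, 2568 to 3024 with each library alone, 3616 at a limit of 50 kb, 803 at 200 kb, 1186 with the starts of all protein-coding transcripts and 371 with those of genes of every biotype. The far share (17.7%) was 17.3% to 19.2% with each library alone, and 33.5%, 7.43%, 10.98% and 3.43% at 50 kb, at 200 kb and with the other 2 sets of starts.

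The GATA share of far sites (69.7%) was 72.2% at 1.6 RPM, 67.5% and 65.4% with read shifts of 0 and 150 bp, 64.4% to 72.3% with each library alone, 67.1% with starts of every biotype, 44.1% and 86.5% within 50 and 200 bp, 38.0% for AGATAA only and 32.0% for the reversed letters. The AP-1 share (17.6%) was 21.2% at 1.6 RPM, 15.5% with library 2 alone and 15.5% with library 1 alone, and 9.33% and 26.9% within 50 and 200 bp.

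With the control of reversed letters counted among the alternatives, the difference in GATA share (3.02 points) kept its call in 5 of 18, with adjusted exact p-values from 0.00265 to 0.8875. It was 1.45 points at 1 RPM, 0.547 at 1.6 RPM, 2.44 with bins moved by 100 bp, 1.36 and 1.06 with shifts of 0 and 150 bp, 1.99 with library 1 thinned to the reads of library 2, 0.853 to 2.95 with each library alone, 1.66 with all transcript starts, -0.392 with starts of every biotype, 2.67 and 1.51 within 50 and 200 bp, 2.23 for AGATAA and 0.588 for the reversed letters. The AP-1 difference (2.37 points) kept its call in 8 of 16, with adjusted p-values from 0.00323 to 0.477, and the others gave 2.09 points at 1 RPM, 2.17 at 1.6 RPM, 1.48 with bins moved, 1.92 with a shift of 150 bp, 2.61 at 200 kb, 1.99 and 1.95 with transcript starts and starts of every biotype, and 1.10 within 50 bp. Fewer sites entered the tests at 1 and 1.6 RPM. The cause of the losses, at these minimums as elsewhere, was not tested.

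Of the other features, the difference for at least 2 GATA sequences reversed to -1.21 points at 1.6 RPM and -0.690 with starts of every biotype. That for gene bodies was -16.8 points (43.7% of far sites, 60.4% of sites 2 to 100 kb away) and reversed to 4.77 points with starts of every biotype. The feature of at least 2 GATA sequences was added after seeing the data, as were the alternatives for all these other features. Leaving out the ribosomal RNA copy was added then too, and changed no call of these shares.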
